A study of Mus musculus with 8 samples.

Results

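Mitochondrial complexes II to V are the complexes of oxidative phosphorylation other than complex I. Their nuclear-encoded genes were examined here in the hippocampus of mice with and without intact Wfs1. The product of Wfs1 is wolframin, which sits in the membrane of the endoplasmic reticulum. The members were all rows of the deposited count table whose symbol is Sdha, Sdhb, Sdhc, Sdhd, Cyc1 or Cycs, or begins with Uqcr, with Atp5, or with Cox followed by 4, 5, 6, 7 or 8. The rule found 50 of the 24078 rows in the table. By role these were 4 subunits of complex II, 9 of complex III and the electron carrier cytochrome c (1 gene). Complex IV had 10 common subunits and complex V had 15. The rest were the supercomplex factor Cox7a2l, 7 tissue isoforms of complex IV subunits, and 3 genes named like a subunit but not counted as one. The 13 genes of mitochondrial DNA are not analysed here, since 0 of them matched a row.

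One group was homozygous for the Wfs1tm1Koks allele, a targeted mutation of Wfs1 (libraries ko15 to ko18, here homozygous replicates 15 to 18). The other was wild-type and carries the same strain label (wild-type replicates 7 to 10). Each genotype had 4 animals and 1 library of ribosome-depleted total RNA per animal, and sex, age and litter are not given in the labels. The tissue was dissected hippocampus, which holds neurons, glia and vessels, so fewer cells of a type and less RNA per cell cannot be told apart.

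Complex II (succinate dehydrogenase) takes electrons from succinate, complex III passes them from ubiquinol to cytochrome c, complex IV (cytochrome c oxidase) hands them to oxygen, and complex V (ATP synthase) uses the proton gradient to make ATP. Neurons depend on this chain for most of their ATP. Several small subunits of complex IV come as pairs of genes, a common isoform used in brain and liver and another used mainly in heart and skeletal muscle, lung or testis.

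Library totals ran from 3250949 to 6747411 counts, and CPM below is the count scaled to a common library size by TMM. Wfs1 itself lay at 44.6 to 61.3 CPM in the wild-type libraries and at no more than 17.7 CPM in the homozygous ones (log2 fold change -1.81, SE 0.16, adjusted p 2.62e-05 in edgeR with Benjamini-Hochberg adjustment), so every library followed its label. Calls below are at an adjusted p of 0.05 over 20478 genes in edgeR's quasi-likelihood test, of which 20.4% were called lower and 20.7% higher in homozygous libraries (41.1% together). Differences are homozygous against wild-type throughout.

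The common subunits were lower in homozygous hippocampus in all 4 complexes. Of 39 genes (complexes II to V with cytochrome c, all of them past the low-count filter) 35 fell, 0 rose and 4 passed in neither direction, and 16 of the 39 fell at least 2-fold, which 4.19% of all genes tested did. The median log2 fold change of the 39 was -0.88, against 0.05 over all genes. For 33 of them every homozygous value lay below every wild-type value, as it did for 18.8% of all genes. The 4 that were not called were Uqcrc2, Atp5c1, Atp5k and Atp5l. With library totals in place of TMM the median of all genes was 0.25, and 31 of the 39 fell and 0 rose, against 11.8% of all genes lower, 32.4% higher and 44.2% in either direction.

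Markers of several brain cell types were lower in the same libraries, and their part in the subunit result was not tested. The lists that fell most had the higher densities, with medians of 37.8 (neurons), 31.8 (astrocytes) and 30.5 (oligodendrocytes) CPM per kilobase of exon in wild-type. Microglial, endothelial and choroid plexus lists had 12.7, 5.16 and 5.53. All genes in the decile of highest density had a median log2 fold change of -0.60. The part of density in the marker values was not tested. Of 15 neuronal markers 13 fell and 1 rose (median log2 fold change -0.60), with a summed level of 4650 to 6190 CPM in wild-type against 3310 to 3600 CPM. Tubb3, a neuronal tubulin, fell by 1.30 on the log2 scale (SE 0.17), while Rbfox3, which encodes NeuN, rose by 0.48 (SE 0.12). With a trend on density (counts per kilobase) subtracted, Tubb3 was at -0.59 (adjusted p 0.00837 in edgeR) and Rbfox3 at 0.54 (adjusted p 0.00749). Astrocyte markers fell in 7 of 10 (summed 3500 to 4300 against 2400 to 2560 CPM). Oligodendrocyte markers also fell in 7 of 10 (summed 1530 to 2420 against 1050 to 1300 CPM). In either list 0 were called higher, but 1 marker of each had a log2 fold change above 0, at 1.02 (astrocytes) and 0.08 (oligodendrocytes). Microglial markers fell in 3 of 10 (summed 300 to 389 against 303 to 366 CPM), and endothelial and pericyte markers fell in 3 and rose in 2 of 10 (summed 366 to 442 against 298 to 337 CPM). Choroid plexus markers fell in 2 and rose in 1 of 10, and their summed level was uneven among libraries, at 388 to 1340 against 182 to 944 CPM. Over all genes tested 20.4% were called lower and 20.7% higher. No marker in these lists was at 0 in all libraries.

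**Figure D1:**
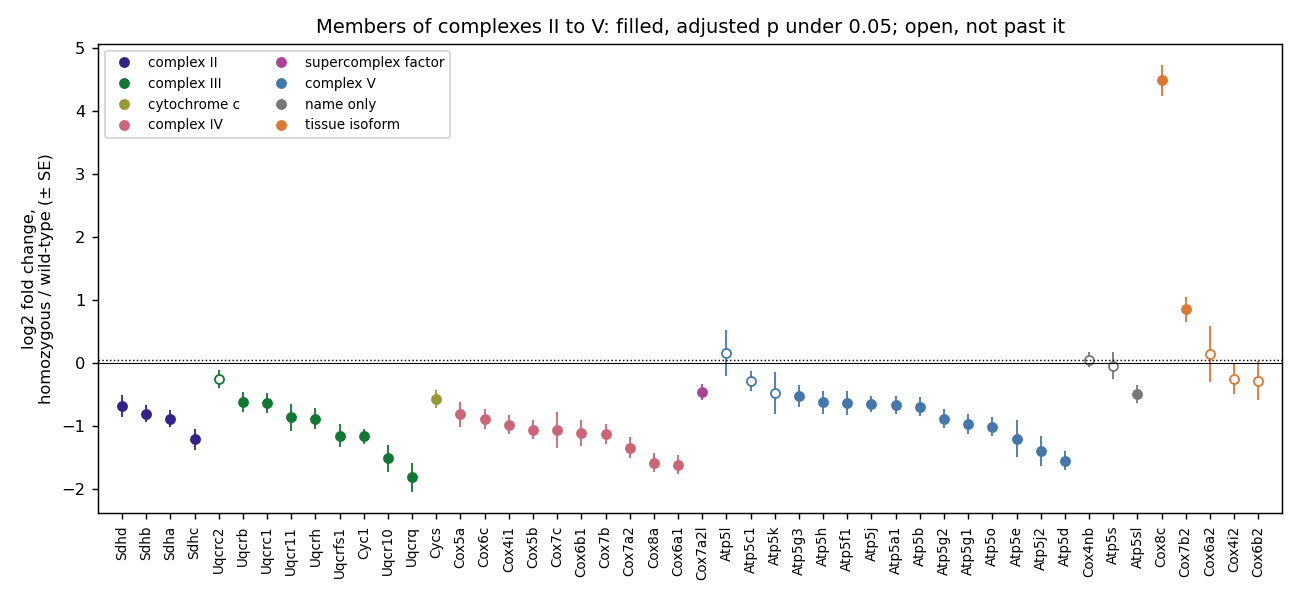
Log2 fold change (homozygous over wild-type, vertical axis, with SE bars) of the 48 members that passed the low-count filter, grouped by complex and ordered within it; filled points had an adjusted p under 0.05 in edgeR, open points did not, and the dotted line is the median of all genes at 0.05. The common subunits sit between -1.81 and 0.16, while Cox8c stands apart at 4.48.

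All 4 subunits of complex II fell. Sdha, the flavoprotein that oxidises succinate, was at 275, 263, 289 and 266 CPM in wild-type replicates 7 to 10 and at 130, 139, 171 and 155 CPM in homozygous replicates 15 to 18. The genotypes did not overlap, every homozygous library lying far below the lowest wild-type one (edgeR: -0.88 on the log2 scale, SE 0.13, adjusted p 0.000542). Sdhc, a membrane anchor subunit that binds haem and ubiquinone, fell most, from 66.2, 73.2, 62.9 and 64.0 CPM to 27.6, 19.5, 36.7 and 31.1 CPM (edgeR: -1.21 on the log2 scale, SE 0.17, adjusted p 0.000405). Its wild-type libraries were close together and homozygous replicate 16 was the lowest. The iron-sulphur subunit gene Sdhb (log2 fold change -0.80, SE 0.14) and the other anchor gene Sdhd (-0.68, SE 0.18) fell less.

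In complex III 8 of 9 genes fell and 4 fell at least 2-fold. Cyc1, which encodes cytochrome c1, the subunit that hands electrons to cytochrome c, went from 87.4, 75.6, 95.9 and 77.6 CPM to 34.4, 37.2, 39.9 and 39.0 CPM (edgeR: -1.16 on the log2 scale, SE 0.12, adjusted p 7.98e-05). The homozygous libraries lay within a narrow band far under the wild-type ones. The small subunit gene Uqcrq had the lowest fold change of the 39, from 34.3, 65.8, 39.8 and 67.1 CPM to 15, 13.6, 13.6 and 16.1 CPM (edgeR: -1.81 on the log2 scale, SE 0.23, adjusted p 0.000223). Here the wild-type libraries were spread, replicates 8 and 10 being high, and the homozygous ones were close together. Uqcr10, another small subunit gene, showed the same pair of high wild-type libraries, at 24.9, 40.3, 23.7 and 33.9 CPM against 11.0, 8.71, 9.54 and 13.5 CPM (edgeR: -1.51 on the log2 scale, SE 0.21, adjusted p 0.000408).

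The core proteins of complex III, Uqcrc1 and Uqcrc2, and its small subunit gene Uqcrb had the smallest differences of the 9. Uqcrc2 was at 179, 131, 167 and 162 CPM in wild-type and 112, 132, 149 and 143 CPM in homozygous libraries, with overlap (edgeR: -0.25 on the log2 scale, SE 0.14, adjusted p 0.168). Uqcrc1 fell by 0.63 on the log2 scale (SE 0.16). Its call ended with a trend on abundance (-0.23, adjusted p 0.219 in edgeR) or on density subtracted (-0.05, adjusted p 0.816). Uqcrfs1, the Rieske iron-sulphur protein, fell with -1.15 (SE 0.18), the hinge subunit gene Uqcrh with -0.88 (SE 0.16), and Uqcr11 and Uqcrb with -0.86 and -0.62. With the density trend subtracted Uqcrh, Uqcr11 and Uqcrb were not called (-0.31, -0.31 and -0.25, adjusted p 0.203, 0.333 and 0.281 in edgeR). The call for Uqcrb also ended with library totals (-0.42, adjusted p 0.0517 in edgeR). Uqcrc2 overlaps the opposite-strand gene Pdzd9 over 504 bp of exon, and Pdzd9 rose (edgeR: 0.68 on the log2 scale, adjusted p 0.00688). Without a stated strand setting of the counting, reads of such a pair cannot be told apart.

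Cycs, the mobile carrier cytochrome c between complexes III and IV, fell from 79.9, 66.1, 78.3 and 86.7 CPM to 42.2, 55.5, 54.9 and 58.1 CPM (edgeR: -0.57 on the log2 scale, SE 0.14, adjusted p 0.00758). Homozygous replicate 15 was the lowest, and the groups did not overlap. Cox7a2l, which takes part in joining complexes III and IV into supercomplexes, fell with a log2 fold change of -0.46 (SE 0.13, adjusted p 0.0181 in edgeR). That call ended without wild-type replicate 7 (-0.42, adjusted p 0.0571) or 9 (-0.43, adjusted p 0.0519). It also ended with library totals (-0.25, adjusted p 0.134 in edgeR) and with a trend on abundance subtracted (-0.28, adjusted p 0.110), and with a trend on density (counts per kilobase) subtracted the value was above 0 (0.19, adjusted p 0.263).

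All 10 common subunits of complex IV fell, 7 of them at least 2-fold. Their median log2 fold change was -1.09, ranging from -1.61 to -0.81. Cox6a1, a regulatory subunit, was at 165, 146, 156 and 178 CPM in wild-type and 42.9, 54.6, 64.8 and 49.6 CPM in homozygous libraries, leaving 32.8% of the wild-type level in the fit. Cox8a, the smallest subunit, was at 142, 119, 136 and 136 CPM and at 46.8, 42.4, 34.4 and 54.6 CPM. In both genes the 2 groups lay far apart. Per kilobase of exon these were the most abundant common complex IV transcripts in wild-type, at 230 (Cox6a1) and 216 (Cox8a) CPM per kilobase of exon.

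The other complex IV genes had smaller fold changes. Cox7a2 fell from 52.1, 71.5, 43.8 and 64.0 CPM to 21.5, 26.1, 20.5 and 22.6 CPM (edgeR: -1.34 on the log2 scale, SE 0.17, adjusted p 0.000212). Cox7b fell from 66.4, 73.2, 64.5 and 89.8 CPM to 27.0, 34.0, 33.3 and 40.2 CPM (edgeR: -1.13 on the log2 scale, SE 0.16, adjusted p 0.000367). Neither gene had overlapping groups, and the wild-type spread was wider than the homozygous one. Cox6b1, which clamps the oxidase dimer, fell with a log2 fold change of -1.11 (SE 0.21), and Cox4i1, the subunit where ATP binds to regulate the enzyme, with -0.98 (SE 0.15). Cox5a was the only common complex IV gene with overlapping groups, because wild-type replicate 8 was at 17.6 CPM while the other wild-type libraries were at 30.9 to 31.8 CPM and homozygous replicate 15 reached 19.3 CPM. Cox5b, Cox6c and Cox7c fell with log2 fold changes of -1.06, -0.89 and -1.06.

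In complex V 12 of 15 genes fell, and the median log2 fold change was -0.67. In its catalytic head 4 of 5 genes fell. Atp5a1 and Atp5b, the alpha and beta subunits that form the nucleotide-binding ring, were the most abundant members per kilobase after Cox6a1 and Cox8a, at 213 and 141 CPM per kilobase in wild-type. Atp5b was at 666, 496, 684 and 551 CPM in wild-type and 397, 346, 369 and 375 CPM in homozygous libraries (edgeR: -0.69 on the log2 scale, SE 0.15, adjusted p 0.00431). Atp5a1 was at 663, 629, 676 and 707 CPM against 392, 393, 402 and 492 CPM (edgeR: -0.67 on the log2 scale, SE 0.14, adjusted p 0.00334), with homozygous replicate 18 the highest of its group. Atp5d, the delta subunit of the central stalk, fell further, from 93.2, 104, 91.1 and 90.7 CPM to 39.4, 30.5, 34.4 and 23.8 CPM. Its partner Atp5e, epsilon, fell with a log2 fold change of -1.20 (SE 0.29), while Atp5c1, gamma, gave -0.29 (SE 0.16, adjusted p 0.156 in edgeR).

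The peripheral stalk fell in 4 of 4 genes. Atp5o, the cap protein OSCP, went from 14.8, 17.6, 18.1 and 18.5 CPM to 8.13, 8.71, 8.67 and 8.81 CPM (edgeR: -1.01 on the log2 scale, SE 0.15, adjusted p 0.000587). The homozygous libraries differed by less than 1 CPM from one another. Atp5j, Atp5f1 and Atp5h fell with log2 fold changes of -0.65, -0.64 and -0.62. Atp5j lies head to head with Gabpa and overlaps its exons on the opposite strand over 397 bp. The calls for Atp5f1 and Atp5h ended without wild-type replicate 10 (-0.60 and -0.49, adjusted p 0.0515 and 0.0501 in edgeR) and without homozygous replicate 15 (-0.54 and -0.51, adjusted p 0.0596 and 0.0522). Both also ended with library totals (-0.45 and -0.43, adjusted p 0.0678 and 0.0806 in edgeR) and with the abundance trend (-0.31 and -0.45, adjusted p 0.238 and 0.0641) or the density trend subtracted (-0.13 and 0.02, adjusted p 0.634 and 0.946).

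Atp5g1, Atp5g2 and Atp5g3 encode the same mature c-ring protein with different targeting sequences, and all 3 were called lower. Atp5g1 fell from 13.1, 14.2, 13.5 and 12.4 CPM to 6.89, 7.26, 7.23 and 5.58 CPM (edgeR: -0.97 on the log2 scale, SE 0.16, adjusted p 0.00107), with no overlap. Atp5g2 fell with -0.88 (SE 0.15). Atp5g3, the most abundant of the 3 per kilobase in wild-type (36.9 CPM per kilobase against 16.8 for Atp5g2 and 2.71 for Atp5g1), gave -0.52 (SE 0.17, adjusted p 0.0338 in edgeR), and its groups overlapped. That call ended when any of 6 libraries was left out, with adjusted p up to 0.0932 (without homozygous replicate 15); the other 5 were wild-type replicates 7, 8 and 9 and homozygous replicates 16 and 18. It also ended with library totals (-0.32, adjusted p 0.132 in edgeR) and with the abundance trend (-0.35, adjusted p 0.131) or the density trend subtracted (0.00, adjusted p 0.988). Whether the 3 fold changes differ from one another was not tested.

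Of the small membrane subunits of complex V, Atp5j2 fell (log2 fold change -1.39, SE 0.24) and Atp5k (-0.47, SE 0.33) and Atp5l did not pass. Atp5l was the only common subunit with a fold change above 0. It was at 72.2, 96.0, 72.5 and 77.8 CPM in wild-type and 44.9, 47.9, 181 and 81.9 CPM in homozygous libraries, so that replicate 17 was far above the rest. Its log2 fold change was 0.16 (SE 0.37, adjusted p 0.751 in edgeR) and -0.46 (adjusted p 0.109) without homozygous replicate 17. Both were singled out after their values were seen.

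**Figure D2:**
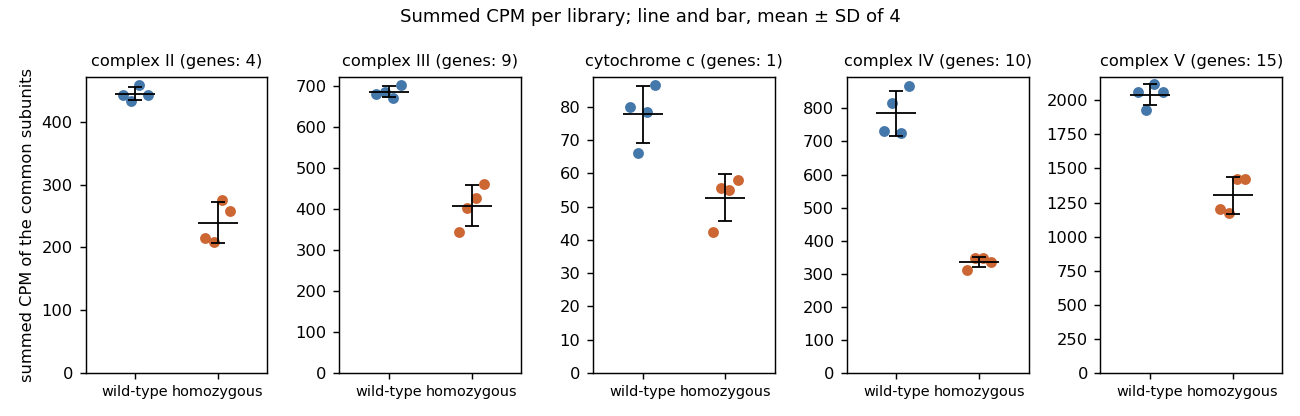
Summed CPM of the common subunits of each complex in every library (points; wild-type left, homozygous right), with the mean and SD of 4 libraries. The homozygous libraries lie below the wild-type ones in each panel; complex IV fell to 42.7% of the wild-type mean and complex V to 63.7%.

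Summed within each library, every complex was lower in all 4 homozygous libraries. Complex IV summed to 785 ± 68.6 CPM in wild-type and 335 ± 16.2 CPM in homozygous libraries (SD, n = 4 each), which is 42.7% of wild-type. Complex II came to 53.9%, complex III to 59.5%, complex V to 63.7% and cytochrome c to 67.8% of wild-type. A sum is led by its most abundant transcripts, Atp5a1 and Atp5b in complex V, and whether the complexes differ from one another was not tested.

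Among the tissue isoforms of complex IV none was called lower, and Cox8c rose 22.3-fold. Of 7 genes, 5 passed the low-count filter. Among these 2 rose, 0 fell and 3 passed in neither direction, beside 20.7% of all genes tested called higher and 20.4% lower. The 5 genes are too few to tell 0 lower from that share. Cox8c, the isoform of subunit 8 known from testis, was counted 21, 7, 25 and 18 times in wild-type replicates 7 to 10 and 348, 246, 326 and 385 times in homozygous replicates 15 to 18. That is 4.50, 2.37, 4.01 and 3.79 CPM against 61.5, 71.4, 94.3 and 113 CPM. All 4 homozygous libraries were far above the highest wild-type library, and the mean went from 3.67 ± 0.913 to 85.0 ± 23.1 CPM (SD, n = 4; edgeR: 4.48 on the log2 scale, SE 0.24, adjusted p 8.01e-07). Leaving out each library in turn gave 4.30 to 4.61.

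Cox8c lies on the plus strand of chromosome 12 of mm10, positions 102899316 to 102900526, and no annotated exon of another gene overlaps it. None of its transcript's 35-base stretches (the length of the shorter read) occurs in a transcript of another gene in GENCODE M21, and the same held for Cox8a, which lies on chromosome 19, positions 7215153 to 7217616. The coding sequences of the pair, from GENCODE M21, are shown for how far the isoforms differ where a read could be assigned to either. Capitals mark runs of at least 8 bases that also occur in the other sequence.
Cox8a: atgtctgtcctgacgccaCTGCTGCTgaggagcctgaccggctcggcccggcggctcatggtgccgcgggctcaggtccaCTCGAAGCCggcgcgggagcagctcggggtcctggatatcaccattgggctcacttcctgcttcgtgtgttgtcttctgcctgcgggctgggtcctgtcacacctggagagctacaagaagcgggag
Cox8c: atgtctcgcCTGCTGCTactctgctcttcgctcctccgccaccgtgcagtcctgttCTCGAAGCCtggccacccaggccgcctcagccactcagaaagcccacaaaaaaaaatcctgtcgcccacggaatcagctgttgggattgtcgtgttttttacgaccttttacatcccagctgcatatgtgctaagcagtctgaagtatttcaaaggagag
Only 17 bases lie in such runs, of 207 coding bases in Cox8a and 216 in Cox8c, and 65.24% of 187 aligned bases are identical.

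No gene next to Cox8c changed by as much. On one side Btbd7, 20845 bp away, was at 31.7 ± 7.41 and 32.8 ± 4.29 CPM (edgeR: 0.06 on the log2 scale, SE 0.18, adjusted p 0.815), and Ubr7 gave -0.33 (adjusted p 0.0512). On the other side Unc79, 48333 bp away, fell (edgeR: -0.73 on the log2 scale, SE 0.16, adjusted p 0.00458), and Prima1, 296382 bp away, rose with 1.19 (SE 0.24) from 3.22 CPM. Counts are given per gene and not per exon, so which part of Cox8c the reads cover is not known from these data.

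Per kilobase of exon, Cox8c overtook Cox8a in the homozygous libraries. In wild-type, Cox8a stood at 193 to 229 and Cox8c at 5.18 to 9.82 CPM per kilobase. In homozygous replicates 15 to 18, Cox8a stood at 75.6, 68.5, 55.6 and 88.2 and Cox8c at 134, 156, 206 and 247 CPM per kilobase. The order of the isoforms was reversed in all 4 of these libraries. The muscle isoform Cox8b was at 1.63 to 6.45 CPM per kilobase across all 8 libraries and was not tested because of its low counts (23 in each genotype).

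Cox7b2, the testis isoform of subunit 7b, also rose, at a far lower level. It was counted 24, 25, 34 and 33 times in wild-type and 62, 38, 36 and 46 times in homozygous libraries, or 5.14, 8.48, 5.45 and 6.94 CPM against 11.0, 11.0, 10.4 and 13.5 CPM (edgeR: 0.85 on the log2 scale, SE 0.20, adjusted p 0.0065). The groups did not overlap. The testis isoform Cox6b2 was at 3.37 to 6.94 CPM in wild-type and 2.64 to 6.36 CPM in homozygous libraries, a log2 fold change of -0.28 (SE 0.31, adjusted p 0.488 in edgeR).

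The remaining isoforms were not called or not tested. Cox6a2, of heart and muscle, was at 4.93, 2.37, 1.76 and 5.05 CPM in wild-type and 3.71, 1.16, 5.20 and 5.58 CPM in homozygous libraries (edgeR: 0.14 on the log2 scale, SE 0.44, adjusted p 0.812). Cox4i2, the oxygen-responsive isoform of lung, was at 7.07 to 8.14 CPM and 3.19 to 7.60 CPM (edgeR: -0.25 on the log2 scale, SE 0.24, adjusted p 0.425). Cox7a1, of heart and muscle, had 25 counts in wild-type and 21 in homozygous libraries together and was not tested. At these counts a difference of the size seen in the common subunits may not be detectable.

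**Figure D3:**
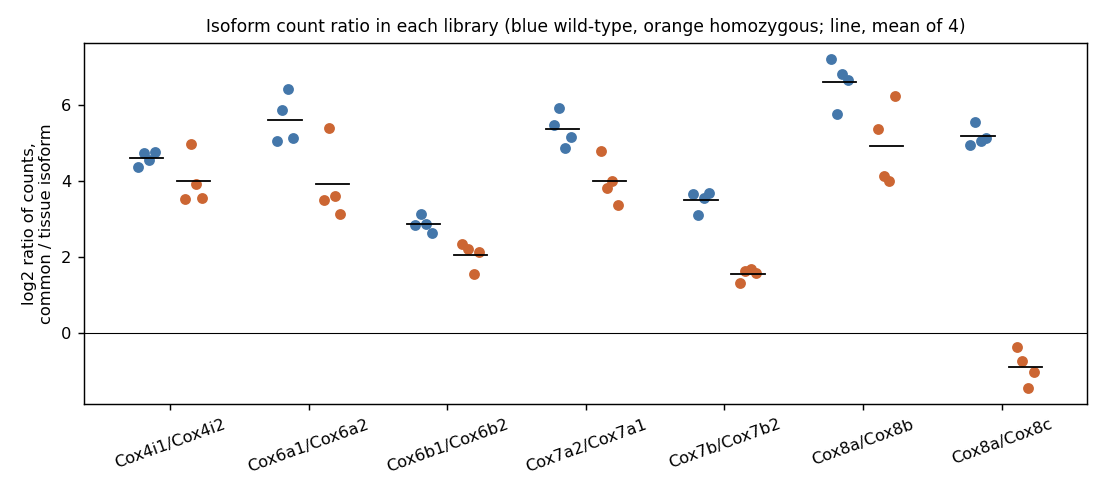
Log2 ratio of the counts of the common isoform to those of its tissue isoform (0.5 added to each) in every library, for 7 pairs; blue points are wild-type, orange points homozygous, and lines are the means of 4. The homozygous mean is lower in each pair, and the Cox8a/Cox8c ratio passes below 0 in all 4 homozygous libraries.

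The ratio of a common isoform to its tissue isoform within a library does not depend on library scaling. The ratio was lower on average in homozygous libraries for all 7 pairs. Each common isoform in these pairs was itself called lower, so a lower ratio restates that fall where the tissue isoform stayed level. Counts in wild-type and homozygous libraries were 23 and 23 for Cox8b, 65 and 62 for Cox6a2 and 25 and 21 for Cox7a1. The pairs are also not independent, since Cox8a is set against both Cox8b and Cox8c. The ratio does not remove a trend of fold change with density, and each common isoform was denser than its tissue isoform in wild-type. Cox6b1 was at 52.4 against 4.54 CPM per kilobase for Cox6b2, and Cox4i1 at 119 against 9.45 for Cox4i2. All genes had a median log2 fold change of -0.60 in the highest decile of density and 0.20 in the 4th. The part of density in these ratios was not tested. The log2 ratio of Cox8a to Cox8c counts was 4.95, 5.55, 5.05 and 5.13 in wild-type and -0.39, -0.75, -1.45 and -1.05 in homozygous libraries, a difference of -6.08. Cox7b to Cox7b2 differed by -1.96, Cox7a2 to Cox7a1 by -1.37 and Cox6b1 to Cox6b2 by -0.82. In these 4 pairs the groups did not overlap, giving an exact two-sided permutation p of 0.0286, the smallest that 4 against 4 allows, and 0.05 after Benjamini-Hochberg adjustment over the 7 pairs, which is at and not under the threshold. Cox8a to Cox8b (-1.69, exact p 0.0571), Cox6a1 to Cox6a2 (-1.70, exact p 0.0857) and Cox4i1 to Cox4i2 (-0.62, exact p 0.143) had overlapping groups.

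Markers of the tissues that these isoforms are known from were low. Per kilobase of exon, 15 striated muscle genes ran from 0.803 to 6.08 CPM in wild-type against 1.15 to 6.07, with 0 called higher and 1 lower of 13 tested. The 14 testis germ cell genes ran from 1.04 to 7.85 and from 0.947 to 10.2 CPM per kilobase, with 3 called higher and 1 lower of 10 tested, and a summed level of 86.3 to 94.7 against 83.3 to 104 CPM. The summed muscle level was 171 to 219 against 187 to 223 CPM. Over all genes tested 20.7% were called higher and 20.4% lower. None of the genes of either list was at 0 in all libraries. Cox8c and Cox7b2 lay above every gene of both lists in both genotypes. In wild-type Cox8c was only just above them, at 8.01 CPM per kilobase. In homozygous libraries Cox8c, at 186 CPM per kilobase, lay far above them, and Cox7b2 was at 21.2. Cox6a2, Cox7a1, Cox8b and Cox6b2 lay within the range of the lists in both genotypes.

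The 3 genes named like a subunit but not counted as one were 1 lower and 2 in neither direction. Cox4nb, which encodes a subunit of the endoplasmic reticulum membrane complex and lies head to head with Cox4i1, was at 99.4 ± 7.85 and 103 ± 8.47 CPM (SD, n = 4; edgeR: 0.05 on the log2 scale, SE 0.12, adjusted p 0.738), beside the -0.98 of Cox4i1. With the abundance trend subtracted Cox4nb was called higher (0.34, adjusted p 0.0362 in edgeR) and Cox4i1 was at -0.63 (adjusted p 0.0132). With the density trend subtracted Cox4nb was again called higher (0.37, adjusted p 0.0254 in edgeR) and Cox4i1 was no longer called (-0.22, adjusted p 0.378). The exons of Cox4nb overlap those of Cox4i1 on the opposite strand over 154 bp. Atp5s gave -0.04 (SE 0.22). Atp5sl was called lower (-0.49, SE 0.14, adjusted p 0.0150 in edgeR) but not without wild-type replicate 9 (-0.43, adjusted p 0.0539) or with library totals (-0.29, adjusted p 0.137).

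**Figure D4:**
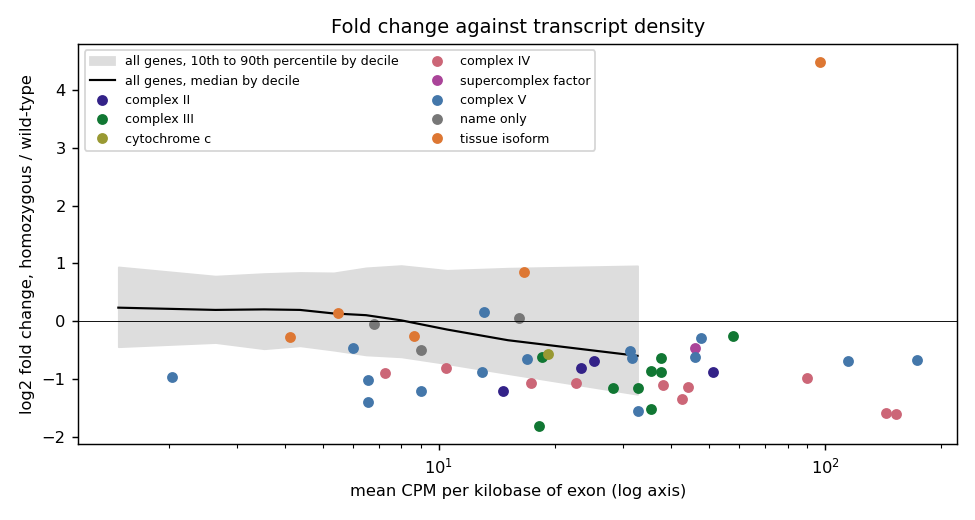
Log2 fold change (homozygous over wild-type) of the tested members against their mean CPM per kilobase of exon on a log axis; the line is the median and the grey band the 10th to 90th percentile of all genes in each decile of that density. Most common subunits lie at a high density and below 0, and Cox8c lies far above the band.

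Fold changes of all genes followed how densely a transcript was read, and the common subunits are among the densest. Of the 39, 24 were in the decile with the highest counts per kilobase, where the median log2 fold change of 2013 genes was -0.60; these 24 had a median of -0.88, and 21 of them lay below the median of the decile. In the next decile the 8 members had a median of -0.76 against -0.33. Short transcripts had the lower values: the 13 common subunits with 584 to 1363 bp of exon had a median of -1.11, the middle 13 had -0.98, and the 13 with 2552 to 6443 bp had -0.67. Across the 39 genes Spearman's rho between fold change and exon length was 0.34. Against abundance rho was 0.15 and against density -0.13. Against the share of a transcript's stretches that occur in transcripts of other genes rho was 0.34. These values are descriptions over genes that share the same 8 libraries. The part of density or length in these results was not tested beyond the following fits.

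After a loess trend on abundance was subtracted from each library, 29 of the 39 were called lower and 0 higher (16.3% of all genes were lower), and all 10 genes of complex IV and all 4 of complex II were among those called. Atp5a1 (0.02, adjusted p 0.932 in edgeR) and Atp5b (0.00, adjusted p 0.985) were then near 0. After the same for density, 18 of the 39 were lower and 2 higher (of all genes 15.2% were lower, 16.9% higher and 32.1% either). In complex IV 7 of 10 stayed lower, among them Cox6a1 (-0.77, adjusted p 0.00324 in edgeR), Cox8a (-0.76, adjusted p 0.00177) and Cox7a2 (-0.76, adjusted p 0.0151). Complexes II, III and V kept 1 of 4 (Sdhc), 4 of 9 and 6 of 15, while Uqcrc2 (0.45, adjusted p 0.0141) and Atp5c1 (0.37, adjusted p 0.0426) were called higher. Cox8c and Cox7b2 were called higher in both fits, with 4.38 and 0.66 on abundance and 5.09 and 1.17 on density.

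Many subunit transcripts share stretches with transcripts of other genes, which can be copies elsewhere in the genome or genes that overlap at the same place. Of the 39, 10 shared under 1% of their 35-base stretches with transcripts of other genes in GENCODE M21, and all 10 fell (median -1.01 on the log2 scale). The 17 that shared at least 10% had 15 lower and a median of -0.86. The counts of the latter are less certain, since the authors' treatment of reads with several matches was not given in the sources used here. Atp5o shared most (47.8%), and the genes it shared most with, Gm15976 and D430001F17Rik, overlap it. Atp5g2 (39.8%) and Uqcrb (32.6%) followed. The stretches shared by Uqcrc2 (473) were all with its overlapping neighbour Pdzd9. Of the 350 shared by Atp5j, 231 were found in a single transcript of its overlapping neighbour Gabpa, and those in other Gabpa transcripts were not added.

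Promoters of oxidative phosphorylation genes are known for sites of the nuclear respiratory factors NRF1 and GABPA, the latter an ETS factor, and of YY1. RefSeq promoter sequences (GRCm38.p6, 250 bases before to 50 after the start) were found for 38 of the 50 members, 31 of them among the 39; Atp5a1, Cox4i1, Cox4i2, Cox4nb, Cox6a2, Cox6c, Cox8c, Cyc1, Sdhc, Uqcrb, Uqcrc2 and Uqcrq had no entry. On either strand, and counting motifs separately where they overlap, the ETS letters CCGGAAG occurred in 12 of the 31 (38.71%) and in 12.95% of 17492 protein-coding genes. The NRF1 palindrome, the letters GCGCA followed directly by their reverse complement TGCGC, occurred in 4 of the 31 (12.9%) against 1.47%, and the YY1 letters AAGATGGC in 3 (9.68%) against 3.57%. Of the 4 tissue isoforms with an entry, 0 held any of these letters. A match is a description of the sequence and not a bound site.

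To show such matches in a gene called lower from each of complexes II, III and IV, bases before the start are printed 5′ to 3′ in the direction of the gene (minus strand), with matches in capitals; CTTCCGG is the ETS motif read from the other strand. They are Sdhd (chr9:50603850-50603969), Uqcrh (chr4:116075071-116075190) and Cox6a1 (chr5:115348959-115349130), the last with an NRF1 match upstream of an ETS match.
Sdhd: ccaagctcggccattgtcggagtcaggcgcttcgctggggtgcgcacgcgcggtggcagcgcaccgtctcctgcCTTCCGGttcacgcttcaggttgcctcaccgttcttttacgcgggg
Uqcrh: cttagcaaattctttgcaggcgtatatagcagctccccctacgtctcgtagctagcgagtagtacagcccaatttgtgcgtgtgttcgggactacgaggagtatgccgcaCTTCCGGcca
Cox6a1: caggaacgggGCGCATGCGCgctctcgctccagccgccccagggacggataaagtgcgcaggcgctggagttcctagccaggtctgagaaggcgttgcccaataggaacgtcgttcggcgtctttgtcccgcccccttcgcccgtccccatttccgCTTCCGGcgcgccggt

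Gabpa and Yy1 were not called. Gabpa was at 55.9 ± 5.24 and 46.3 ± 4.11 CPM (SD, n = 4; edgeR: -0.27 on the log2 scale, SE 0.12, adjusted p 0.0910) and Yy1 gave -0.31 (SE 0.13, adjusted p 0.0636). Yy1 was called lower without homozygous replicate 17 and after the density trend was subtracted (-0.47, adjusted p 0.0135 in edgeR). Nrf1 rose from 56.6 ± 4.71 to 83.4 ± 9.77 CPM (edgeR: 0.56 on the log2 scale, SE 0.12, adjusted p 0.00479). Ppargc1a, the coactivator PGC-1alpha that drives mitochondrial biogenesis, gave -0.19 (SE 0.15, adjusted p 0.330). In a list of 20 regulators of mitochondrial gene expression 5 were called higher and 2 lower (median log2 fold change 0.19). Over all genes 20.7% were called higher and 20.4% lower. Polrmt, the mitochondrial RNA polymerase, rose from 20.4, 29.2, 23.3 and 21.7 CPM to 192, 196, 68.5 and 104 CPM (edgeR: 2.58 on the log2 scale, SE 0.31, adjusted p 0.000169), and Esrrb rose as well (0.63). Polg, the mitochondrial DNA polymerase (-0.34), and Tfam, which packages mitochondrial DNA (-0.38), were called lower, but each call ended when any of 5 libraries was left out (wild-type replicates 7 and 10 and homozygous replicates 15 and 17 for both, wild-type replicate 9 for Polg, homozygous replicate 18 for Tfam). Both calls also ended with library totals (Polg -0.14, adjusted p 0.339 in edgeR; Tfam -0.19, adjusted p 0.287) and with the abundance trend subtracted (-0.18, adjusted p 0.221, and -0.20, adjusted p 0.277). With the density trend subtracted Polg was at -0.46 (adjusted p 0.0127 in edgeR) and Tfam at -0.07 (adjusted p 0.726).

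Assembly factors of complexes II to V had a median log2 fold change of -0.25, beside -0.88 for the subunits. Their median density in wild-type was 8.86 CPM per kilobase, while 24 of the common subunits were in the highest decile. All genes had a median log2 fold change of 0.02 in the 7th decile, whose median density was 7.99, and -0.60 in the highest. The part of density in this contrast was not tested. Of 39 listed assembly factors, 38 passed the low-count filter. Of these 10 fell and 2 rose, beside 20.4% of all genes called lower and 20.7% higher. Cmc1, which helps to mature a core subunit of complex IV, had the largest fold change of the list, going from 85.1, 146, 75.1 and 88.4 CPM to 11.0, 11.0, 11.3 and 15 CPM (edgeR: -3.03 on the log2 scale, SE 0.23, adjusted p 7.83e-06). Atpaf1, a chaperone of the ATP synthase head, fell with -0.77 (SE 0.13). Sco1, which delivers copper to complex IV, rose from 33.0, 33.9, 28.1 and 37.9 CPM to 53.3, 94.4, 81.3 and 49.3 CPM (edgeR: 1.07 on the log2 scale, SE 0.21, adjusted p 0.00239), and Cox16 rose with 0.54.

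Most genes of 2 other mitochondrial lists fell, beside 20.4% of all genes called lower and 20.7% higher. Their median density in wild-type was 24.8 (tricarboxylic acid cycle) and 18.9 (transport and import) CPM per kilobase. In the 2 deciles of highest density all genes had median log2 fold changes of -0.60 and -0.33. In the tricarboxylic acid cycle list 15 of 19 fell and 0 rose (median -0.73); Mdh2, malate dehydrogenase, lay at 101 to 106 CPM against 55.3 to 65.3 CPM (edgeR: -0.81 on the log2 scale, SE 0.11, adjusted p 0.000322), and Pdhb of pyruvate dehydrogenase fell with -0.87. Of 21 transport and import genes 19 fell and 1 rose (median -0.77). The adenine nucleotide carrier gene Slc25a5 fell with -1.35 (SE 0.17) and the import channel gene Timm23 with -1.05 (SE 0.13). The import motor gene Timm44 rose with 1.34 (SE 0.28), although its groups overlapped. With the density trend subtracted Mdh2 was at -0.38, Pdhb at -0.73, Slc25a5 at -0.78, Timm23 at -0.79 and Timm44 at 1.58, all still called. The part of density in the 2 lists was not tested.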

How the data were processed

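Hippocampal total RNA from 8 animals was ribodepleted, and the SOLiD 4 platform read each fragment from both ends (50 and 35 bp), as the labels' protocols state. What the authors deposited is a table of raw counts per gene symbol; the build was mm10 per the submitters' processing notes. Not given in the sources used here are aligner, counter, strand setting and annotation. That the values are counts follows from the table: they are whole and library totals differ (3250949 to 6747411).

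Symbols were matched to GENCODE release M21 (97.67% of 24078 rows) for positions, exon lengths and biotypes. Counts were filtered with filterByExpr, scaled by TMM and tested with edgeR 4.0.16 (quasi-likelihood, two-sided, no covariate, R 4.3.3), with Benjamini-Hochberg adjustment over 20478 genes and a threshold of 0.05. SE is that of the log2 fold change, SD is over 4 libraries. The p-values measure the spread between animals within a genotype, and handling that went along with genotype is not covered by them. Isoform pairs were compared by exact permutation tests of log2 count ratios (0.5 added). The code was tested on simulated data. DESeq2 1.42.0, limma 3.58.1, sva 3.50.0, other scalings and filters, loess trends (span 0.3) and leaving out each library were the alternatives. Motifs and 35-base stretches were searched with Python 3.11.15.

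The members, lists and tests were chosen with earlier results of these data known. Named by rule were Wfs1, all genes of the 7 isoform pairs, per complex the 3 called lower without overlap by smallest p, the 2 of highest counts per kilobase and any called higher, and for each other list up to 2 called genes per direction by smallest p. Members named beyond this rule were chosen after their values were seen. Of the marker lists, only neurons, by Tubb3 and Rbfox3, have genes named.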

Additional observations from a re-analysis of the deposited data

Results flagged for a closer look

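In each genotype, the gap between the highest or lowest library and the nearest other one, divided by the range of the 4, was compared with Dixon's 95% critical value for each of the 50 members. Of 100 groups 2 passed it, and chance alone flags about 1 in 20. Cox5a was at 17.6 CPM in wild-type replicate 8, against 30.9 to 31.8 CPM in the other wild-type libraries. Atp5a1 was at 492 CPM in homozygous replicate 18, against 392 to 402 CPM in the other homozygous libraries.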

How the results depend on the processing

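With the density trend (counts per kilobase) removed, the common subunits called lower went from 35 to 18 and those called higher from 0 to 2, members called higher in all went from 2 to 5, and medians relative to all genes became -0.30 (complex II), -0.32 (III), -0.20 (cytochrome c), -0.74 (IV) and -0.33 (V), from -0.89, -0.93, -0.62, -1.14 and -0.73. With the abundance trend removed, cytochrome c was -0.42 and complex V -0.54. The tissue isoform median, 0.09, was -0.15 with the abundance trend removed. In the same settings Uqcrc2 became 0.14 (abundance) and 0.45 (density), Atp5a1 0.02 and 0.18, Atp5b 0.14, Atp5c1 0.37, Atp5h 0.02 and Cox7a2l 0.19 (density) and Cox6a2 -0.14 (abundance). Library totals alone gave 31 lower; the other scalings, filters and tools gave 35 or 36. The cause of these shifts was not tested.

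Without 1 library at a time, the common subunits called lower numbered 32 to 35, and 0 were higher; 2 members were called higher each time. The relative medians ran from -0.95 to -0.83 (II), -1.07 to -0.90 (III), -0.72 to -0.51 (cytochrome c), -1.25 to -1.07 (IV), -0.81 to -0.69 (V) and -0.18 to 0.37 (tissue isoforms); the last was below 0 without wild-type replicate 8 (-0.04) or 9 (-0.18) or homozygous replicate 17 (-0.07) or 18 (-0.11). Cox6a2 ran from -0.14 to 0.41: it was -0.14 without wild-type replicate 9, -0.02 without homozygous replicate 17 and -0.06 without 18. Isoform ratio differences ran from -0.95 to -0.46 (Cox4i1/Cox4i2), -2.19 to -1.43 (Cox6a1/Cox6a2), -1.63 to -1.16 (Cox7a2/Cox7a1) and -2.12 to -1.38 (Cox8a/Cox8b). The Cox4i1/Cox4i2 and Cox6a1/Cox6a2 groups no longer overlapped without homozygous replicate 16, nor did Cox8a/Cox8b without homozygous replicate 18 (exact p 0.0286 each); Cox7a2/Cox7a1 reached 0.0571 without any wild-type library or homozygous replicate 18. No paired analysis was possible because the genotypes share no replicate number. Totals of 23 to 137 counts in wild-type limit the tissue isoforms.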
